A study of Homo sapiens with 17 samples.

Results

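The genes described here are 4 inhibitor of apoptosis genes, BIRC2, BIRC3, XIAP and BIRC6, taken by symbol from a table of 58870 entries, each symbol matching 1 entry. The cells were of MDA-MB-231, an established line that came from a human triple-negative breast cancer, labelled as mesenchymal and basal B. TRAIL, a death-receptor ligand of the TNF family, was given at 45 nM, a dose the design calls suboptimal and chose so that living cells would be sampled. RNA was taken at 0, 1, 3, 6, 12 and 24 h, with 2 libraries analysed from 1 h and 3 from each of the other times. Every library, those at 0 h included, carries the TRAIL label, and no later library is labelled untreated, so time with TRAIL and time in culture cannot be told apart. The labels do not say whether replicates were separate cultures, and p-values then measure only the spread between these libraries. In RNA from a whole culture, fewer cells that make a transcript and less transcript per cell cannot be told apart.

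Inhibitor of apoptosis proteins share the BIR domain, a zinc-binding fold through which they hold caspases or the mitochondrial antagonists of these inhibitors. XIAP blocks caspases directly. The proteins of BIRC2 and BIRC3, cIAP1 and cIAP2, are ubiquitin ligases that work in TNF receptor complexes, where they ubiquitinate RIPK1 and, with TRAF2 and TRAF3, keep the kinase of MAP3K14 low. BIRC3 is a textbook target of NF-κB. BIRC6 encodes a very large ubiquitin-conjugating protein that binds caspases and SMAC.

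BIRC3 (ENSG00000023445, chromosome 11, 102317450 to 102339403) and BIRC2 (ENSG00000110330, chromosome 11, 102347211 to 102378670) lie on the plus strand with 7.81 kb and 0 other genes between them (GENCODE 29, GRCh38). XIAP (ENSG00000101966) spans 123859724 to 123913979 on chromosome X and BIRC6 (ENSG00000115760) spans 32357028 to 32618899 on chromosome 2, also on the plus strand. The longest basic transcript has 4066 bases for BIRC2, 5197 for BIRC3, 8591 for XIAP and 15703 for BIRC6. BIRC2 and BIRC3 overlap 0 annotated genes, XIAP overlaps 3 and BIRC6 overlaps 7, antisense genes among them, and although the library kit keeps strand, the strand setting of the counting was not given in the sources used here. The counts of all 4 genes were whole, within 1e-06, in all 17 libraries.

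The sequences before the starts of BIRC3 and BIRC2 are shown because these neighbours changed most in the series among the 4 genes, and to different extents. Both are the plus strand of RefSeq promoter windows (GRCh38.p14), read up to the base before the gene starts in GENCODE 29: chr11:102317234-102317449 for BIRC3 and chr11:102346964-102347210 for BIRC2. Capitals mark matches to the κB consensus, the general NF-κB recognition sequence, searched on both strands.
BIRC3: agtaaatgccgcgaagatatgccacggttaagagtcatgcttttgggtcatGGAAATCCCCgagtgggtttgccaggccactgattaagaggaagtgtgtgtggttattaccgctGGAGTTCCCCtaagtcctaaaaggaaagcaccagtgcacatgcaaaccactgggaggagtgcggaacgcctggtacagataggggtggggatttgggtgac
BIRC2: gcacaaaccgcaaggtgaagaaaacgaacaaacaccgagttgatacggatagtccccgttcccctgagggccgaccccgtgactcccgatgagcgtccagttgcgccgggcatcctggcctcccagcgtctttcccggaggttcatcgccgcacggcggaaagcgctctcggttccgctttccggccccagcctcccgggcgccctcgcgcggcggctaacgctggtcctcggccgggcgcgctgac
The BIRC3 window held 2 matches, GGAAATCCCC at 199 to 190 bases and GGAGTTCCCC at 135 to 126 bases before the RefSeq start, both on the minus strand. Neither of the 2 overlapping BIRC2 windows nor any of the 3 XIAP windows held a match. In the first of 2 BIRC6 windows GGGGGTCCCC matched on both strands. Over all 35116 windows of 300 bases in the table, some of which share bases, 11.3% held a match and 0.994% held at least 2 that did not overlap each other. The AP-1 letters TGANTCA (7.71% of windows) and the TATA letters TATAAA (11.5%) were found in 0 windows of the 4 genes. A match is a description of these letters and does not show binding.

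Total counts per library ran from 13731520 to 19234924, and 15365 genes were tested. Levels are in CPM, counts scaled to a common library total (TMM), and differences are log2 fold changes from edgeR's quasi-likelihood test, called when the adjusted p over all genes tested is below 0.05. Libraries of different times often did not overlap. Depending on the pair of times and the direction, 8.96% to 30.9% of all genes tested had replicates without overlap. Replicates 2 and 3 at 6 h and replicates 2 and 3 at 24 h resembled each other more than other replicates did (chi-square per gene 1.55 and 1.68, against 3.86 to 14.6 in the other pairs). Results of the 4 genes that change when each pair is averaged are given with that value. The other named genes were not examined with the pairs averaged, so their calls at 6 h and 24 h lack this check. Long transcripts took a larger share of counts in some libraries than in others. The length slope, the log2 change in level per doubling of transcript length with the average library set to 0, had means of -0.037, -0.069, -0.099, 0.068, 0.017 and 0.097 in the order of the times. The mesenchymal markers VIM (2490 to 3720 CPM), CD44 and AXL were high, ESR1 and PGR had at most 2 counts and 1 count in any library and CDH1 at most 1.01 CPM, whereas ERBB2 had 56.4 to 70.9 CPM and the epithelial gene EPCAM 13.1 to 19.3 CPM. Of the markers of other cells, PTPRC, LYZ and CD3E had at most 5, 6 and 0 counts, and PECAM1 was low (0.789 to 3.98 CPM) but rose by 1.17 by 24 h (adjusted p 0.00258). Its part in the results was not tested.

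All 4 genes were called as different between times by the F-test over the 6 times, which called 64.2% of all genes tested (adjusted p 6.2e-12 for BIRC3, 1.0e-07 for BIRC2, 5.4e-04 for BIRC6 and 6.7e-04 for XIAP). Against 0 h, BIRC2 and BIRC3 were called as higher at 3 h (2 of the 4, with 9.04% of all genes called higher), all 4 at 6 h (16.9% of all genes), BIRC2 and BIRC3 at 12 h (5.96%) and all 4 at 24 h (18.0%), and 0 of the 4 at 1 h (0.260%). At 1 h, 1 of the 4, BIRC3, had an unadjusted p below 0.05 in edgeR's quasi-likelihood test, and DESeq2 and limma-voom called 0 of the 4. With the close pairs averaged, 2 of the 4 were called at 6 h and 3 at 24 h. Calls fell over all genes too with this setting. In either direction it called 2532 of 15292 genes at 6 h and 3464 at 24 h, against 4627 and 5388 of 15365 without averaging. BIRC2 and BIRC3 were among the 73 genes (0.475%) called higher at each of 3, 6, 12 and 24 h, comparisons that share the 0 h libraries. The median difference of the 4 genes from 0 h was, in the order of the later times, -0.081, 0.22, 0.73, 0.33 and 0.52, and that of all genes tested lay between -0.022 and -0.0017.

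**Figure D1:**
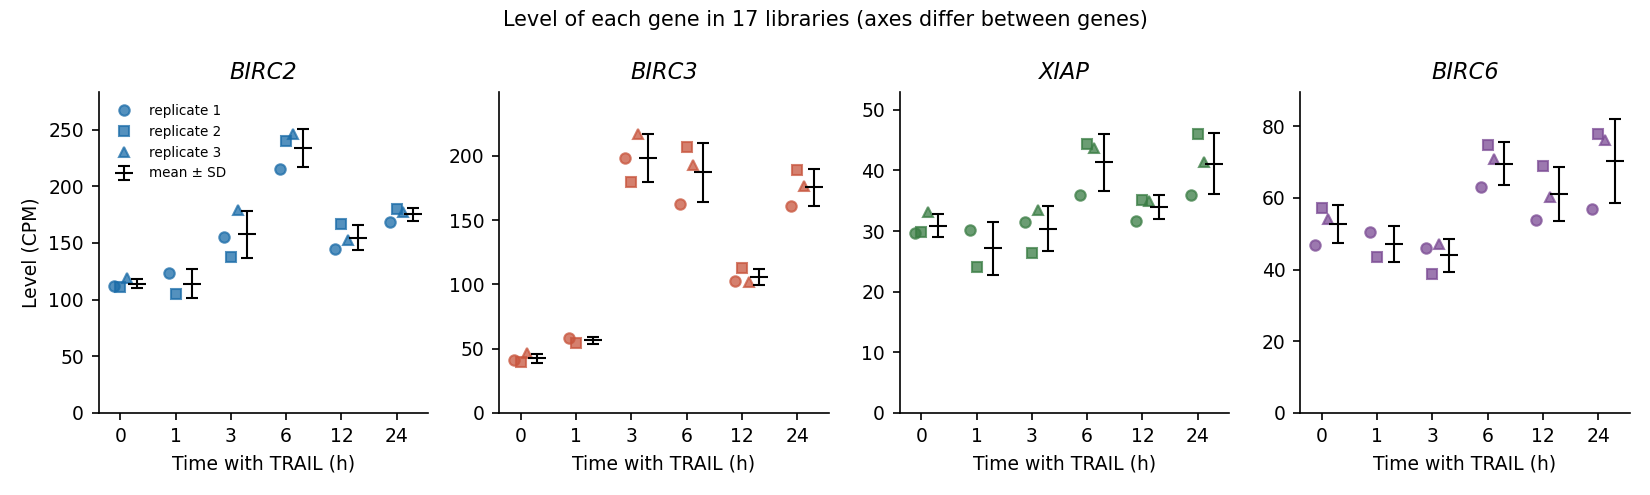
Level of BIRC2, BIRC3, XIAP and BIRC6 in CPM (vertical axes from 0, different for each gene) at each time with TRAIL in hours, 1 symbol per library and replicate, with mean ± SD beside them (n = 3, and n = 2 at 1 h). BIRC3 stood at 39.8 to 46.5 CPM at 0 h and at 179 to 217 CPM at 3 h, BIRC2 was highest at 6 h, and XIAP and BIRC6 moved over a narrower range.

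BIRC3, which encodes cIAP2, changed most. Its libraries at 0 h had 41.3, 39.8 and 46.5 CPM (replicates 1 to 3), and those at 1 h had 58.4 and 54.4 CPM. At 3 h they had 198, 179 and 217 CPM. The 1 h values lay above all 0 h values, and the 3 h values lay far above those at 1 h, with no overlap at either step. Of all genes tested, 10.1% also lay wholly higher at 1 h than at 0 h, and 16.5% at 3 h than at 1 h. BIRC3 stood at 162, 207 and 193 CPM in the 6 h libraries, 103, 113 and 102 CPM in the 12 h libraries, and 161, 189 and 177 CPM in the 24 h libraries. The time course thus had a high level at 3 h and 6 h, a lower one at 12 h that did not overlap with them, and a high one again at 24 h.

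Relative to 0 h, BIRC3 rose 4.66-fold by 3 h (log2 2.22, SE 0.0953, adjusted p 1.5e-11), 4.40-fold by 6 h (2.14, SE 0.0949, adjusted p 2.7e-11), 2.49-fold by 12 h (1.32, SE 0.0947, adjusted p 7.6e-08) and 4.12-fold by 24 h (2.04, SE 0.0949, adjusted p 3.0e-11). It ranked 30th, 24th, 62nd and 29th from the highest difference among the 15365 genes at these times. At 1 h the difference was 0.41 (95% interval 0.18 to 0.63, adjusted p 0.222), and it passed the threshold with no filter on low counts (adjusted p 7.8e-04) and with length and GC trends removed (8.4e-04). With no filter, edgeR's adjusted p for BIRC3 at 3 h was 2.2e-176 at nearly the same difference (2.20). Calls from that fit are therefore not directly comparable with those of the filtered fit. Between consecutive times BIRC3 rose from 1 h to 3 h (1.81, adjusted p 3.6e-09), fell by 0.82 between 6 h and 12 h (adjusted p 4.8e-06), and rose again by 24 h (0.73 against 12 h, adjusted p 8.7e-05). The shares of all genes called in those directions were 3.17%, 11.9% and 6.42%. From 3 h to 6 h the difference was -0.084 (95% interval -0.27 to 0.10, adjusted p 0.462). It was -0.35 with length and GC trends removed (adjusted p 6.1e-06) and 0.0089 without the 6 h replicate 1. In the order of its levels, 3 h, 6 h, 24 h, 12 h, 1 h and 0 h, the first 3 overlapped and were not called against their neighbours, 24 h and 12 h differed, 12 h and 1 h differed (0.91, adjusted p 1.9e-05, with 7.87% of all genes called higher), and 1 h and 0 h did not overlap but were not called.

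BIRC2, which encodes cIAP1, had smaller differences from 0 h than BIRC3 and its highest level at 6 h. It had 112, 111 and 119 CPM in the 0 h libraries and 123 and 105 CPM in those of 1 h. The 3 h libraries had 155, 138 and 179 CPM and the 6 h libraries 215, 240 and 246 CPM. The values at 0 h and 1 h overlapped, those at 3 h lay above both, and those at 6 h lay above every library of every other time. At 12 h BIRC2 had 144, 166 and 153 CPM and at 24 h 168, 180 and 178 CPM. These overlapped with 3 h but not with 0 h.

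BIRC2 rose by 0.47 on the log2 scale by 3 h (SE 0.0847, adjusted p 9.7e-04), by 1.04 by 6 h (SE 0.0842, adjusted p 9.0e-08), by 0.44 by 12 h (SE 0.0842, adjusted p 0.00251) and by 0.62 by 24 h (SE 0.0842, adjusted p 3.7e-05), which are 1.38-fold, 2.05-fold, 1.35-fold and 1.53-fold. At 1 h the difference was -6.3e-04 (95% interval -0.20 to 0.20, adjusted p 1). Between 3 h and 6 h BIRC2 rose further, by 0.57 (adjusted p 7.4e-05, with 22.9% of all genes called higher). By 12 h BIRC2 fell by 0.60 relative to 6 h (adjusted p 6.3e-05), and the difference from 12 h to 24 h was 0.18 (95% interval 0.0056 to 0.35, adjusted p 0.162). The rise from 1 h to 3 h (0.47, adjusted p 0.0058) did not pass when replicate 2 of 1 h was left out (0.36, adjusted p 0.0959) or when only those 2 times were fitted (adjusted p 0.0565). In the order 6 h, 24 h, 3 h, 12 h, 0 h and 1 h, only 24 h against 6 h (-0.42, adjusted p 0.00107, with 12.1% of all genes called lower) and 12 h against 0 h were called among neighbours.

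The BIRC3 to BIRC2 ratio within a library does not depend on scaling to depth. In counts, the log2 ratio was -1.44, -1.48 and -1.36 in the 0 h libraries, -1.07 and -0.95 at 1 h, and 0.35, 0.38 and 0.27 at 3 h. The 3 h libraries were those in which BIRC3 counts exceeded BIRC2 counts throughout. The 6 h libraries then had log2 ratios of -0.41, -0.22 and -0.35, the 12 h libraries -0.49, -0.56 and -0.58, and the 24 h libraries -0.066, 0.076 and -0.0082. No library of a later time overlapped with 0 h, and the mean was higher than at 0 h by 0.41, 1.76, 1.10, 0.88 and 1.43 in the order of the later times. The exact two-sided permutation test gave p = 0.1 at each of the 5 times, the smallest value these group sizes allow. Per kb of annotated exon, the mean ratio of BIRC3 to BIRC2 was 0.229 ± 0.0102 in the 0 h libraries and 0.776 ± 0.0291 in the 3 h libraries (SD, n = 3 each). By this measure BIRC2 stayed above BIRC3, whereas BIRC3 counts exceeded BIRC2 counts at 3 h. Whether the order per kb at 3 h holds with another length was not tested. The exon unions (6911 bases for BIRC3, 4248 for BIRC2) differ more than the longest transcripts (5197 and 4066), for which no ratio was computed.

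**Figure D2:**
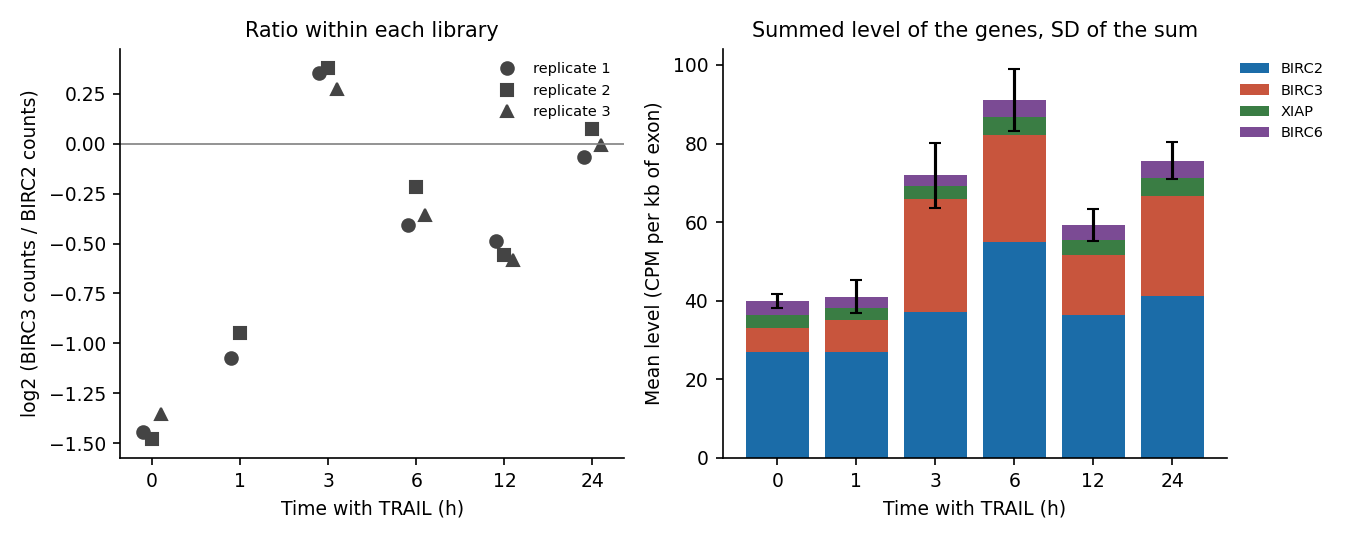
Left, log2 ratio of BIRC3 counts to BIRC2 counts in each of 17 libraries by time with TRAIL in hours, with a line at equal counts. Right, mean level per kb of exon of the 4 genes stacked by time, with the SD of their sum (n = 3, and n = 2 at 1 h). The ratio was lowest at 0 h and highest at 3 h, and the sum was highest at 6 h.

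On the scale of CPM per kb of exon, which allows levels of different genes to be set side by side, BIRC2 stood at 26.9 ± 0.997 at 0 h (SD, n = 3), BIRC3 at 6.15 ± 0.507, XIAP at 3.45 ± 0.216 and BIRC6 at 3.35 ± 0.335. BIRC2 thus made up 67.5 ± 0.730% of the summed level of the 4 genes at 0 h and BIRC3 15.4 ± 0.623%. At 3 h these shares were 51.5 ± 0.940% and 39.9 ± 0.802%. The share of XIAP was 8.67% at 0 h and 4.73% at 3 h, and that of BIRC6 was 8.43% and 3.90%. The summed level, in the order of the times, was 39.8 ± 1.77, 41.0 ± 4.20, 72.0 ± 8.29, 91.2 ± 7.88, 59.4 ± 4.06 and 75.7 ± 4.76 (SD, n = 3, and n = 2 for 1 h). Exon length is the union of basic GENCODE 29 transcripts, 4248 bases for BIRC2, 6911 for BIRC3, 8937 for XIAP and 15703 for BIRC6, and the isoforms in use were not measured.

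XIAP, which encodes the direct caspase inhibitor, was at 29.7, 29.8 and 33.1 CPM at 0 h and at 30.3 and 24.1 CPM at 1 h. At 3 h it was at 31.4, 26.3 and 33.5 CPM and at 6 h at 35.9, 44.4 and 43.8 CPM. The first 3 times overlapped, and all 6 h libraries lay above them. At 12 h XIAP was at 31.7, 35.1 and 35.0 CPM and at 24 h at 35.9, 46.0 and 41.4 CPM. The 12 h values overlapped with 0 h, and the 24 h values did not.

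XIAP rose by 0.42 by 6 h (SE 0.110, adjusted p 0.00771) and by 0.41 by 24 h (SE 0.110, adjusted p 0.00725), or 1.34-fold and 1.33-fold. At 1, 3 and 12 h the differences from 0 h were -0.18 (95% interval -0.45 to 0.083, adjusted p 0.987), -0.020 (-0.26 to 0.22, adjusted p 0.925) and 0.14 (-0.093 to 0.37, adjusted p 0.446). The 1 h difference was -0.355 without replicate 1 of that time and -0.035 without replicate 2. Among consecutive times, 3 h to 6 h was called (0.44, adjusted p 0.00364, and 0.17, adjusted p 0.042, with length and GC trends removed), and 6 h to 12 h (-0.28, adjusted p 0.0699) and 12 h to 24 h (0.27, adjusted p 0.102) were not, although their replicates did not overlap. Of all genes tested, 20.1% lay wholly lower at 12 h than at 6 h, and 15.8% wholly higher at 24 h than at 12 h. The call at 6 h was lost with the close pairs averaged (0.36, adjusted p 0.0508), and the call at 24 h without the 24 h replicate 2 (0.32, adjusted p 0.0525). No neighbours in the order of its levels, 6 h, 24 h, 12 h, 0 h, 3 h and 1 h, differed by the test.

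BIRC6 had 46.9, 57.1 and 54.0 CPM at 0 h, 50.6 and 43.5 CPM at 1 h, and 46.1, 38.8 and 47.1 CPM at 3 h. At 6 h it had 63.1, 74.9 and 70.9 CPM and at 12 h 53.8, 69.0 and 60.4 CPM. The 6 h libraries lay above all those at 0, 1 and 3 h, whereas 12 h overlapped with 0 h. At 24 h BIRC6 had 56.9, 77.9 and 76.1 CPM, and replicate 1 fell within the range of the 0 h libraries.

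BIRC6 rose by 0.40 by 6 h (SE 0.122, adjusted p 0.0199) and by 0.42 by 24 h (SE 0.122, adjusted p 0.0142), or 1.32-fold and 1.33-fold. Its lowest mean was at 3 h, where the difference from 0 h was not called (-0.26, 95% interval -0.52 to 0.0076, adjusted p 0.168). It was called with no filter (-0.28, adjusted p 0.00984) and with length and GC trends removed (-0.22, adjusted p 0.0314). The limit given for BIRC3 on calls from the fit with no filter holds here too. From 3 h to 6 h BIRC6 rose by 0.66 (adjusted p 5.4e-04), or by 0.43 with length and GC trends removed (adjusted p 7.3e-05), and the other consecutive steps were not called. The calls against 0 h were lost with the close pairs averaged (0.35, adjusted p 0.0824 at 6 h, and 0.34, adjusted p 0.0834 at 24 h) and without the 0 h replicate 1 (0.32, adjusted p 0.0954, and 0.34, adjusted p 0.0762). They were also lost without replicate 2 (0.35, adjusted p 0.0825 at 6 h, and 0.33, adjusted p 0.0746 at 24 h) or replicate 3 (0.39, adjusted p 0.066, and 0.36, adjusted p 0.0636) of the later time. No neighbours in the order of its levels, 24 h, 6 h, 12 h, 0 h, 1 h and 3 h, differed by the test.

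XIAP and BIRC6 moved with the length slope of the library. Across the 17 libraries, which share times and depth scaling, Pearson's r between log2 CPM and the slope was 0.981 for BIRC6 (Spearman's rho 0.963), 0.923 for XIAP (0.936), 0.655 for BIRC2 (0.708) and 0.366 for BIRC3 (0.294). The median r over 11369 genes was 0.1, and over the 948 of them with a transcript of at least 8000 bases it was 0.753. Of the 11369 genes, 7 had an r at or above that of BIRC6, itself included, and 612 one at or above that of XIAP. Within 24 h, replicate 1 had a slope of 0.025 and 56.9 CPM of BIRC6, and replicates 2 and 3 had slopes of 0.138 and 0.128 and 77.9 and 76.1 CPM. Of the 1093 tested genes with a transcript of at least 8000 bases, 39.1% were called higher at 6 h and 45.9% at 24 h, with median differences of 0.21 and 0.25. From 3 h to 6 h, 50.9% of them were called higher, with a median difference of 0.28. For the 113 genes with a transcript of at least 15000 bases, nearer the length of BIRC6, the shares called higher were smaller. They were 29.2% at 6 h, 37.2% at 24 h and 41.6% from 3 h to 6 h, with median differences of 0.17, 0.21 and 0.19.

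With each library's trends with transcript length and GC content removed, the XIAP difference from 0 h was 0.23 at 6 h (adjusted p 0.0076) and 0.17 at 24 h (adjusted p 0.0382). For BIRC6 it was 0.21 at 6 h (adjusted p 0.0245) and 0.16 at 24 h (adjusted p 0.0732), so that the call at 24 h was lost. The differences of BIRC2 (0.95 at 6 h) and BIRC3 (1.99 at 6 h, 1.91 at 24 h) stayed called and close to the values above. Whether the slope reflects RNA handling or the cells was not tested. The mitochondrial share of counts also differed between times, with means of 6.75%, 8.68%, 8.59%, 4.49%, 5.72% and 3.9% in the order of the times. Its relation to the slope was not tested.

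**Figure D3:**
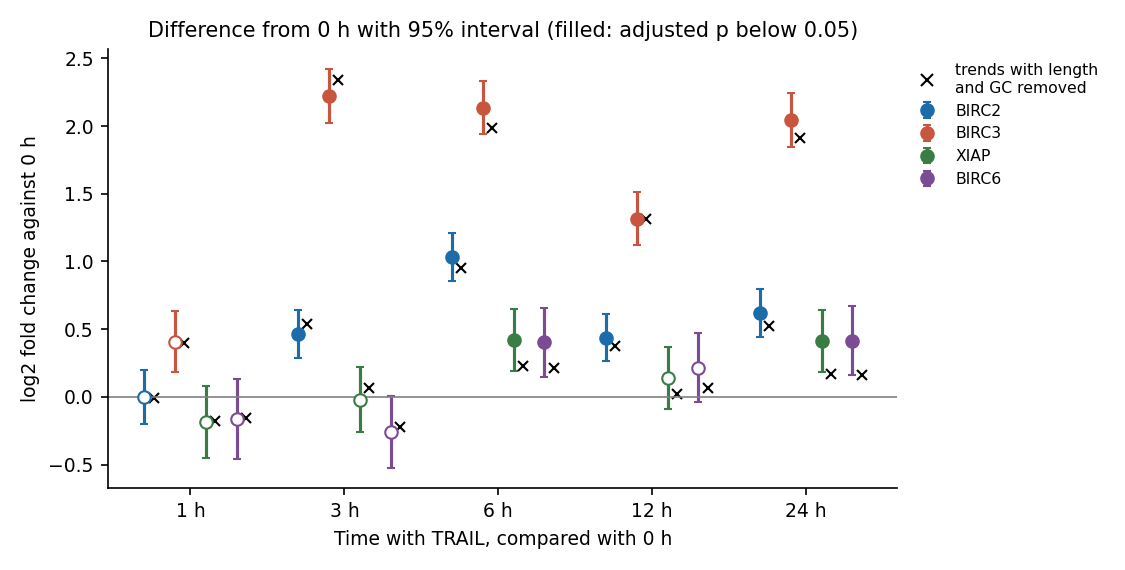
Log2 fold change of each gene against 0 h at 5 times, with 95% interval (filled circle, adjusted p below 0.05; open circle, not called), and crosses for the same difference after removal of each library's trends with transcript length and GC content. At 6 h XIAP went from 0.42 to 0.23 and BIRC6 from 0.40 to 0.21, while BIRC3 went from 2.14 to 1.99.

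**Figure D4:**
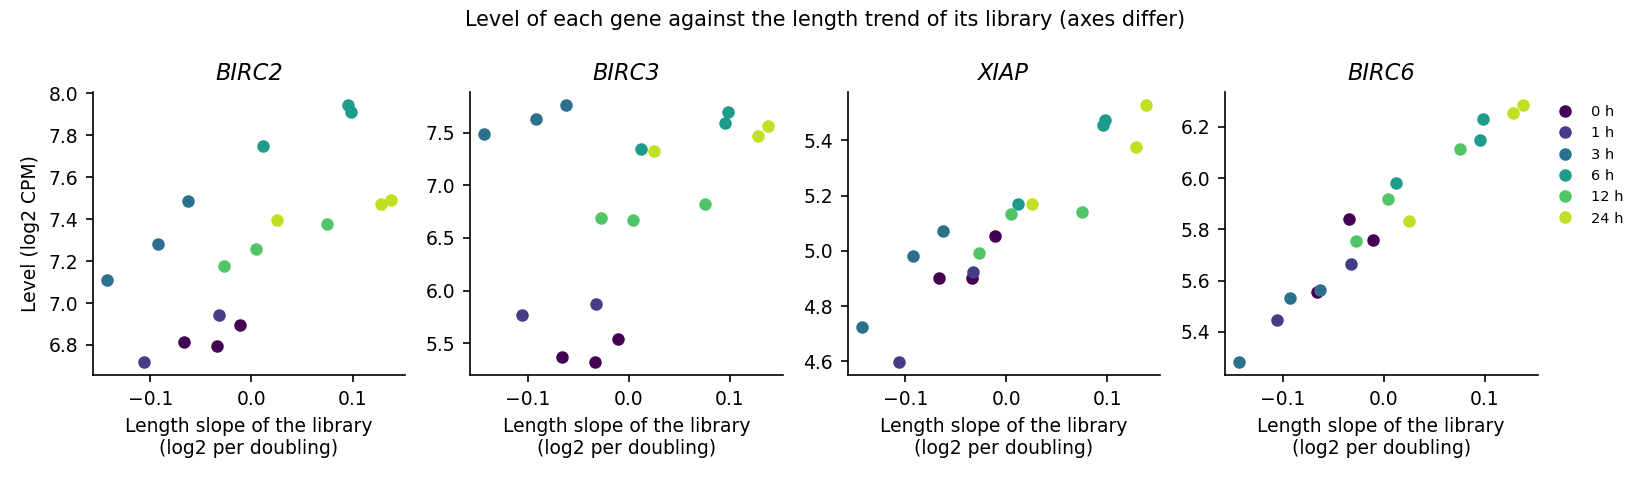
Level of each gene in log2 CPM (vertical axes differ) against the length slope of the library in log2 per doubling of transcript length, 1 point per library, coloured by time. The points of BIRC6 and XIAP rise with the slope (r 0.981 and 0.923), and those of BIRC2 and BIRC3 do so less closely (r 0.655 and 0.366).

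The 4 genes differed in how they varied together. Over the 17 libraries, Pearson's r of log2 CPM was 0.902 for XIAP with BIRC6 (rho 0.895), 0.840 for BIRC2 with BIRC3 (0.819), 0.819 for BIRC2 with XIAP (0.892) and 0.334 for BIRC3 with BIRC6 (0.240), the libraries sharing their times and scaling. The genes most like BIRC3 among 11368 were ZNFX1 (r 0.954), IL11 (0.948), TRAF1 (0.946), ZNF561 (0.935) and PXK (0.934). Pearson's r does not reflect the size of a change. By 3 h these genes, in the same order, differed from 0 h by 0.37, 1.48, 1.53, 0.38 and 0.38, and BIRC3 by 2.22. The genes most like BIRC2 were BAZ1A (0.968), PDE4DIP (0.964), BTBD10 (0.961), KIAA0753 (0.956) and NUFIP2 (0.954). XIAP was most like ZNF106 (0.971), ASH1L (0.971), GPATCH8 (0.970), MYLK (0.968) and ZFP91 (0.966), and BIRC6 most like ARHGAP21 (0.986), MFAP3 (0.983), IL6ST (0.980), GFPT1 (0.978) and DST (0.977). The r of BIRC6 with the length slope, 0.981, lay within the range of its listed genes.

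The complex partners and substrates of cIAP1 and cIAP2 formed a list of 11 genes, of which 0 were called at 1 h (edgeR; unadjusted p below 0.05 for 2, TNFRSF1A and MAP3K14), whereas 3 h had 5 higher and 1 lower, 6 h had 6 higher, 12 h had 2 higher and 1 lower, and 24 h had 5 higher and 2 lower. The shares of all genes called higher are given above, and those called lower were, in the order of the later times, 0.0521%, 8.71%, 13.2%, 6.48% and 17.1%. The list's median difference was 0.22 at 3 h and 0.22 at 6 h. TRAF1, an adaptor of the same receptor complexes, had 16.6 ± 1.63 CPM at 0 h and, in the order 3, 6, 12 and 24 h, 47.8 ± 0.523, 73.6 ± 3.87, 29.2 ± 0.943 and 50.3 ± 2.68 CPM (SD, n = 3 each). It rose by 1.53 by 3 h (adjusted p 4.5e-11) and 2.15 by 6 h (adjusted p 2.1e-13), and its 6 h level was above its 3 h level by 0.62 (adjusted p 5.3e-06). TRAF2, which brings the cIAPs to receptors, rose by 0.36 by 3 h and 0.44 by 6 h (adjusted p 0.00328 and 3.6e-04), and TRAF3 rose by 0.34 by 3 h and 0.71 by 6 h (adjusted p 0.00318 and 9.7e-07). CYLD, a deubiquitinase that opposes these ligases, rose by 0.69 by 6 h (adjusted p 3.5e-05) and 0.62 by 24 h (adjusted p 8.7e-05). TNFRSF1A, the TNF receptor gene, fell by 0.45 by 3 h (adjusted p 1.1e-05), and the LUBAC genes RBCK1 and SHARPIN fell by 0.38 and 0.35 by 24 h (adjusted p 0.00198 and 0.0101). RNF31, also of LUBAC, had a difference of 0.13 at 24 h and was not called (adjusted p 0.193). Counts of RNF31 and MAP3K14 were not whole in 17 and 15 libraries, so their values are uncertain.

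Of the 4 tested IAP antagonist genes, 0 were called at 1, 3, 6 and 12 h (edgeR; unadjusted p below 0.05 for HTRA2 and XAF1 at 12 h and for 0 genes at the other 3 times), where 0.312%, 17.7%, 30.1% and 12.4% of all genes were called in either direction. HTRA2, which encodes a mitochondrial protease that binds BIR domains, fell by 0.33 by 24 h (adjusted p 0.00293). DIABLO, which encodes SMAC, had 77.8 ± 1.92 CPM at 0 h and 70.3 ± 3.27 at 24 h (SD, n = 3 each, difference -0.14, adjusted p 0.0737). The symbol DIABLO matched 2 entries, and these values are those of the entry with the higher mean level. Counts of this DIABLO entry and of HTRA2 were not whole in 16 and 17 of 17 libraries. Those of NAIP and XAF1 were not whole in 17 and 11 libraries. The values of these genes are thus uncertain. CASP9, which encodes the initiator caspase of the mitochondrial pathway, fell by 0.35 by 6 h (adjusted p 0.0365) and was above its 0 h level by 0.31 at 24 h (adjusted p 0.0454), and CASP8, the gene of the initiator caspase at death receptors, was not called at any time against 0 h. Among other BIR-domain genes, BIRC5, which encodes the mitotic protein survivin, rose by 0.20 by 6 h (adjusted p 0.0135), NAIP was not called at any time against 0 h, and BIRC7 and BIRC8 had at most 2 and 0 counts in any library and were not tested. UBA6, which encodes the activating enzyme that charges the BIRC6 protein, rose by 0.36 by 6 h and 0.34 by 24 h (adjusted p 0.00454 and 0.00493). It was the only 1 of 4 genes in the list of XIAP and BIRC6 partners called at these times. The shares of all genes called higher were 16.9% and 18.0%. UBA6 was not examined with length and GC trends removed, and whether it moved with the length slope was not tested. At 1 h, where 0 of the 4 inhibitor genes were called, NFKBIA, the gene of the NF-κB inhibitor IκBα, rose by 0.68 (adjusted p 8.0e-06). Of the 4 genes of its NF-κB feedback list, 2 were called higher at 1 h (0.260% of all genes). From 0 h to 1 h the mean of TNFAIP3 went from 8.71 to 13.3 CPM. The means of NFKB2 and RELB went from 80.3 to 87.5 CPM and from 19.9 to 18.7 CPM.

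The protein-coding genes that flank BIRC3 and BIRC2 are YAP1, 84.0 kb before BIRC3, and TMEM123, 17.7 kb after BIRC2. At 3 h, when BIRC3 and BIRC2 were higher, TMEM123 fell by 0.40 (adjusted p 0.0168) and the YAP1 difference was -0.36 (adjusted p 0.0727). At 24 h YAP1 rose by 0.61 (adjusted p 0.00265). STAG2, which follows XIAP, fell by 0.41 by 3 h (adjusted p 0.0251) and rose by 0.48 by 24 h (adjusted p 0.00499). Beside BIRC6, TTC27 rose by 0.30 by 6 h (adjusted p 0.00408), and YIPF4 was not called at any time against 0 h. The mean length slope of the libraries was lowest at 3 h (-0.099) and highest at 24 h (0.097). These neighbours were not examined with length and GC trends removed, and whether they moved with the slope was not tested.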

How the data were processed

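Total RNA from MDA-MB-231 was made into stranded poly(A) libraries, per the labels' protocols. The authors deposited 1 table of expected counts per gene from RSEM, per its name, not scaled to depth, for 58870 entries and 17 libraries. Cutadapt 1.18, STAR 2.7.0f and hg38 are named in the submitters' processing notes, and the RSEM version, annotation and strand setting were not given in the sources used here. Of the nonzero values, 30.6% were not whole (tolerance 1e-06), and counts were rounded. Genes passing filterByExpr (15365) were fitted with edgeR 4.0.16 (R 4.3.3; TMM scaling, factors 0.939 to 1.06; quasi-likelihood test, robust, all libraries in 1 fit), with Benjamini-Hochberg adjustment over all genes for each of 15 pairs of times. Totals of 13731520 to 19234924 counts and a common biological coefficient of variation of 7.06% set the precision. Correlations used log2 CPM with a prior count of 2. Named genes are the 4 genes, the genes of the pathway, neighbour and identity lists, and for each of the 4 the 5 genes with the highest Pearson r among those whose average log2 CPM reached 2. The genes and lists were chosen with earlier results of these data known. Alternatives, examined for the 4 genes and not for the other named genes, were other scaling, no filter, DESeq2 1.42.0, limma-voom (limma 3.58.1), fits of 2 times only, a replicate block, removal of length and GC trends, averaging of close pairs and leaving out each library. Another 1 h library was not analysed here, protein sequences were not used here, and some genes of the lists are not reported here.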

Additional observations from a re-analysis of the deposited data

How the results depend on the processing

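Under settings that leave out no library, 338 recomputed values of the 4 genes kept their direction and their side of the threshold, 11 became called, 5 lost their call and 2 changed sign. With no filter on low counts, BIRC3 at 1 h (0.404), BIRC6 at 3 h (-0.280), XIAP from 6 h to 12 h (-0.281) and XIAP from 12 h to 24 h (0.271) became called. For BIRC3 at 3 h, edgeR's adjusted p was 2.2e-176 with no filter and 1.5e-11 with the filter, at similar differences (2.20 and 2.22). The calls with no filter are therefore not directly comparable with the others. With only the 2 times compared in the fit, BIRC2 from 1 h to 3 h (0.466) lost its call and XIAP from 6 h to 12 h (-0.260) gained one. With length and GC trends removed, calls were gained by BIRC3 at 1 h (0.396), BIRC6 at 3 h (-0.221), XIAP from 1 h to 3 h (0.238), BIRC3 from 3 h to 6 h (-0.353), XIAP from 6 h to 12 h (-0.207) and BIRC2 from 12 h to 24 h (0.144), BIRC6 at 24 h lost its call (0.164), and XIAP at 3 h changed sign (0.063). With the close pairs averaged, XIAP at 6 h (0.360) and BIRC6 at 6 h (0.353) and 24 h (0.336) lost their calls. The cause of these changes was not tested.

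The replicate block changed no call of the 4 genes, and BIRC2 at 1 h changed sign (0.034). Deviations of same-numbered libraries of different times had a median r of 0.0108 over 40 pairs (from -0.199 to 0.211), against -0.00864 over 80 pairs with different numbers. An r above 0.1 was found in 8 of the 40 pairs and 14 of the 80. Of 17 libraries, 10 correlated best with a library of their own number, and the number expected without pairing was not computed. The numbers were not taken as pairing.

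With each library left out in turn, 259 values kept direction and call, 3 became called, 8 lost their call and 6 changed sign. Against 0 h, the ranges were 0.324 to 0.468 for BIRC6 at 6 h, 0.335 to 0.549 for BIRC6 at 24 h, 0.323 to 0.503 for XIAP at 24 h, -0.115 to 0.103 for BIRC2, -0.355 to -0.035 for XIAP and -0.270 to -0.064 for BIRC6 at 1 h, and -0.092 to 0.074 for XIAP at 3 h. Between consecutive times they were 0.363 to 0.580 for BIRC2 and -0.195 to 0.012 for BIRC6 from 1 h to 3 h, -0.160 to 0.0089 for BIRC3 from 3 h to 6 h, -0.375 to -0.232 for XIAP from 6 h to 12 h, and 0.185 to 0.365 for XIAP and 0.118 to 0.331 for BIRC6 from 12 h to 24 h. Where the 1 h group was left with 1 library, that library was assumed to vary like the others. With 2 or 3 libraries a time, the calls of BIRC6 against 0 h and of XIAP at 24 h could each be lost by leaving out 1 library.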
